A study of Mus musculus with 2 samples.

Results

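Arterial-type endothelial cells line arteries and the small arterioles that feed capillary beds. They were picked here from single-cell RNA sequencing (scRNA-seq) of the mouse temporomandibular joint (TMJ) by raw counts of unique molecular identifiers (UMIs), the tags that mark each captured transcript. A barcode was kept as a cell from 500 genes upward if mitochondrial genes gave under 10% of its UMIs. A kept cell passed the endothelial gate when Pecam1, Cdh5, Kdr and Flt1 together had at least 3 UMIs and Ptprc, which encodes the leukocyte protein CD45, had 0. It was a member when Sema3g plus Stmn2 had at least 2 UMIs and more than the capillary genes Car4 plus Timp4. Members were 316 of 10109 kept cells, 195 of 4352 in the WT library and 121 of 5757 in the mutant library. The genes of this rule, and the comparison of the members with other cells of the same gate, are therefore a description of how the cells were chosen, with no test.

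The study asked how a deficit of lymphatic vessels bears on TMJ arthritis. It compared WT mice with Prox1+/− mutant mice, which are heterozygous for the transcription factor that specifies lymphatic endothelium. All were female C57BL/6 mice, 8 to 10 weeks old, and both genotypes received complete Freund's adjuvant (CFA), an emulsion with killed mycobacteria that provokes inflammation, by injection into the joint. The study made 1 library per genotype, so genotype, animals and library cannot be told apart, no p-value was computed, and every interval given is a 95% interval that covers counting error within the libraries only. How the Prox1 allele was made and how many mice went into a library are not given in the sources used here, and no library without CFA was analysed here. WT members summed to 2040706 UMIs and mutant members to 1345245, with medians of 8029 and 7201 UMIs per cell. The libraries shared 10 barcodes, of which 0 belonged to members.

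Arterial identity is set in large part by Notch signalling: the ligands Dll4, Jag1 and Jag2 activate the receptors Notch1 and Notch4, whose cleaved tail acts through Rbpj on targets such as Hey1 and Hey2. Sox17 is a transcription factor of arterial endothelium, Gja4 and Gja5 encode gap junction proteins that couple arterial endothelial cells, and Efnb2 is the ephrin that marks the arterial against the venous side. Arteries also carry an elastic wall, to which fibulins, elastin and matrix Gla protein (Mgp) belong. Of the rule genes, Sema3g encodes a secreted semaphorin of arterial endothelium and Stmn2 a microtubule regulator best known from neurons.

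Prox1 (ENSMUSG00000010175, GRCm38 chromosome 1, 190118035 to 190170714) was examined first, since it is the gene that differs between the genotypes. Expression is given as CPM, the UMIs of a gene as a share of all UMIs of the cells named, scaled to 1000000. All kept cells together had 563 Prox1 UMIs in WT and 315 in the mutant, a log2 ratio of mutant over WT of −1.01 (−1.21 to −0.80). In all cells of the endothelial gate it had 312 and 103 UMIs, a log2 ratio of −0.85 (−1.19 to −0.53). The gate held 28.4% of kept WT and 13.6% of kept mutant cells, and the part of this in the ratio of all kept cells was not tested. In the members Prox1 had 37 UMIs in 6 WT cells and 17 UMIs in 6 mutant cells, or 18.1 and 12.6 CPM, and the log2 ratio of −0.52 (−1.44 to 0.34) spanned 0. In members without genes of other lineages, a set defined further on, it had 8 and 7 UMIs and a log2 ratio of 0.35 (−1.35 to 2.01). The gene was thus lower in the mutant library as a whole, and among arterial-type cells it was rare, with intervals that held both 0 and the ratio of the whole library.

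Members made up a smaller share of the mutant library, but nearly the same share of its endothelial cells. They were 4.48% (3.89 to 5.14) of kept WT cells and 2.10% (1.75 to 2.51) of kept mutant cells, a difference of −2.38 percentage points (−3.12 to −1.68). When the rule was applied after thinning each cell to 2000 UMIs, the difference was −1.19 points. All cells of the endothelial gate made up 28.4% and 13.6% of kept cells. Within the gate, members were 15.8% (13.8 to 17.9) of 1237 WT cells and 15.4% (13.0 to 18.2) of 784 mutant cells, and the difference of −0.330 points (−3.51 to 2.98) spanned 0. Capillary-type cells, with at least 2 UMIs of Car4 plus Timp4 and more of these than of the arterial pair, were 50.2% of endothelial cells in WT and 27.6% in the mutant library. Endothelial cells in no class were 27.4% and 52.2%. There were 31.4 arterial-type cells per 100 capillary-type cells in WT and 56.0 in the mutant. Genes of other lineages differed along with these shares. In the mutant library 59.7% of the cells in no class carried at least 0.5% of their UMIs in the genes of 1 of 8 lists of other cell lineages, against 17.1% in WT. Median depth was 4007 and 5234 UMIs in capillary-type cells and 2878 and 3133 in cells of no class. The part of either in the shares was not tested.

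**Figure D1:**
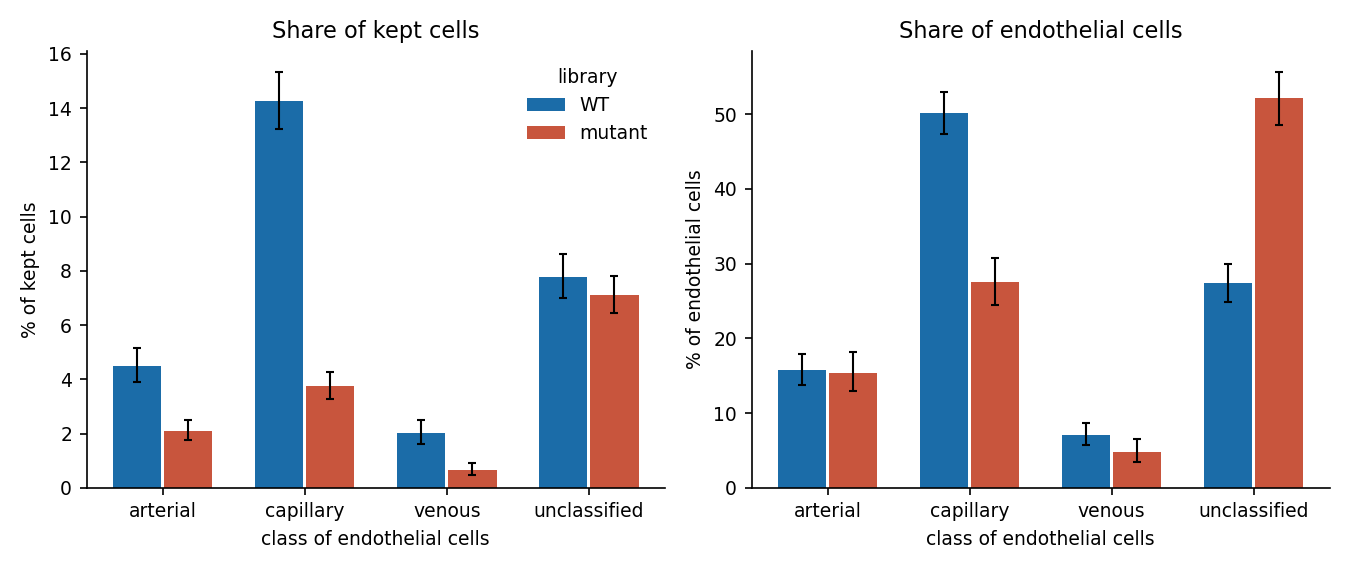
Share of kept cells (left) and of endothelial cells (right), in percent, of the 4 classes of endothelial cells in the WT and mutant libraries; bars are shares and lines are exact 95% binomial intervals. Arterial-type cells sit at 4.48% and 2.10% of kept cells but at 15.8% and 15.4% of endothelial cells.

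The rule genes were spread over the members as follows. Sema3g had a UMI in 161 of 195 WT and 104 of 121 mutant members, and Stmn2 in 165 and 92. Both genes were present in 131 WT members (67.2%, 60.1 to 73.7) and 75 mutant members (62.0%, 52.7 to 70.7). Sema3g alone was present in 30 and 29 members, and Stmn2 alone in 34 and 17. The median member held 6 UMIs of the pair in WT and 5 in the mutant. At the threshold itself stood 27 WT and 25 mutant members with exactly 2 UMIs, and just outside it 43 WT and 51 mutant cells with 1 UMI and none of the capillary pair. A further 81 WT and 23 mutant endothelial cells had at least 2 UMIs of the pair but at least as many of the capillary pair, and 13 and 36 cells met the rule apart from a Ptprc UMI.

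Of the markers given for these cells, Sema3g and Stmn2 belong to the rule and Pecam1 to the gate, so that Sox17 and Btnl9 alone could be checked apart from the choice of cells. Pecam1, the adhesion protein of all endothelium, had a UMI in 98.5% of WT and 95.9% of mutant members. Sox17 (ENSMUSG00000025902, chromosome 1, 4490931 to 4497354) reached 298 CPM (275 to 323) in WT members and 227 CPM (203 to 254) in mutant members, against 130 and 75.8 CPM in capillary-type cells and 42.9 and 38.9 in venous-type cells. Venous-type cells were cells of the gate, other than members, with at least 2 UMIs of Ackr1 plus Selp. They also had more of these than of Car4 plus Timp4 and more than of Sema3g plus Stmn2. Btnl9 (ENSMUSG00000040283, chromosome 11, 49165585 to 49187159), a butyrophilin-like gene, stood at 96.5 and 128 CPM in members and at 122 and 119 CPM in capillary-type cells. It was thus not higher in the members than in capillary cells, with log2 ratios of −0.33 (−0.59 to −0.08) for WT cells and 0.11 (−0.22 to 0.44) for mutant cells, and was lower only in venous-type cells, at 11.5 and 17.7 CPM. Of 6 lymphoid genes, 3 WT and 2 mutant UMIs were found in all members together.

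Outside the rule genes, and leaving out genes with over 25% of their UMIs in 1 cell, the nebulette gene Nebl and the gap junction genes Gja5 and Gja4 had the highest ratios of members to capillary-type cells, by the smaller ratio of the 2 libraries. Gja4 (ENSMUSG00000050234, chromosome 4, 127311421 to 127314039) had 637 UMIs in WT members and 251 in mutant members, 312 CPM (288 to 337) and 187 CPM (164 to 211). In capillary-type cells it had 12.5 CPM in WT and a single UMI in the mutant, which gave log2 ratios of 4.64 (4.19 to 5.12) and 7.85 (5.36 to 13.16). Gja5 (ENSMUSG00000057123, chromosome 3, 96904693 to 97077416) stood at 195 CPM (176 to 215) and 131 CPM (112 to 152) in members. Its capillary level was 6.27 CPM in WT, a log2 ratio of 4.96 (4.33 to 5.67), and 0 UMIs in the mutant. There members were 54.1-fold higher against a floor of 3 UMIs over the class, with a lower interval bound of 5.44 in log2. Nebl (ENSMUSG00000053702, chromosome 2, 17343909 to 17731464), which encodes an actin-binding protein, stood at 472 CPM (443 to 503) and 627 CPM (585 to 670) in members, at 12.2 and 3.23 CPM in capillary-type cells and at 0 UMIs in venous-type cells of either library. In each library all 3 genes stood above both other classes with no overlap of the intervals. They were ranked by their ratio to capillary-type cells, so the gap to that class follows from the choice of genes.

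These genes were also seen cell by cell. Gja4 had a UMI in 55.4% of WT and 48.8% of mutant members, Gja5 in 42.1% and 38.8%, and Nebl in 56.4% and 47.9%. After each cell was thinned to 2000 UMIs, which evens out depth and leaves out 5 WT and 6 mutant members that were shallower, the shares were 31.6% and 24.3% for Gja4, 21.1% and 16.5% for Gja5, and 43.7% and 40.0% for Nebl. Capillary-type cells had a Gja4 UMI in 3.06% and 0.463% of cells before thinning. Background from free RNA was read in cells that should lack the gene. Among 33 WT B cells, at a median of 4834 UMIs, 0 had a Gja4 UMI, which by a floor of 3 counts allows a share of up to 9.09%, and 0 of 23 mutant B cells did, up to 13.0%, and among neutrophils, at medians of 9080 and 6067 UMIs, 1.45% and 1.53% did. For Bmx the neutrophils reached 29.0% in WT and 44.6% in the mutant, above the members' 26.2% and 25.6%. Across all kept cells a Bmx UMI thus does not mark arterial cells. Within the gate a Bmx UMI was in 6 of 621 WT and 0 of 216 mutant capillary-type cells, and in 6.82% and 7.89% of venous-type cells. Whether the Bmx UMIs of neutrophils were their own or free RNA was not tested.

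The sequence just upstream of 3 of these genes is shown because Notch acts on its targets through Rbpj, and because Gja5, Gja4 and Bmx had few or no UMIs in mutant capillary-type cells. Each is the 250 bases before the RefSeq transcription start in GRCm38.p6, 5′ to 3′ on the gene's own strand, with the core Rbpj motif TGGGAA in capitals wherever it or its reverse complement occurred; no other motif was searched. Gja5 is chr3:97032152-97032401 (plus strand), Gja4 chr4:127314040-127314289 (minus strand) and Bmx chrX:164258194-164258443 (minus strand).
Gja5: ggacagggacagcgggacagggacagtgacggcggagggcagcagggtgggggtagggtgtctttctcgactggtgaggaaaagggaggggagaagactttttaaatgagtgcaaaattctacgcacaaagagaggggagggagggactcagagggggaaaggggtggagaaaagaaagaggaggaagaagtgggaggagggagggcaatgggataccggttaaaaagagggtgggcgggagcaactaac
Gja4: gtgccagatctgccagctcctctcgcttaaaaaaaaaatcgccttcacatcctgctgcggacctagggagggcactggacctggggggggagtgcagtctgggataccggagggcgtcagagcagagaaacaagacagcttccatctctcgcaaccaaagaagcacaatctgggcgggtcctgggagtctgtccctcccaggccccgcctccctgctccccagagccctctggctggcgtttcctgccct
Bmx: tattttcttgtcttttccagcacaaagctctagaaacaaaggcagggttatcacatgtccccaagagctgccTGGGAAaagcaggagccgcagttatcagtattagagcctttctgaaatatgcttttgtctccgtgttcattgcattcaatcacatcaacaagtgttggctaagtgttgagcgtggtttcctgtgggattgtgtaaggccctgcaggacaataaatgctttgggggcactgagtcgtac
The motif had 0 matches upstream of Gja5 and Gja4 and 1 upstream of Bmx. Of the 25 genes of the arterial list, 19 were matched in RefSeq and 6 of these, 31.6%, held the motif, against 24.1% of all 27025 genes, and by single windows of that length 24% against 21.6%. A match describes letters, not a bound site.

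Across the transcriptome, 495 of 10189 genes with at least 50 UMIs, 4.86%, were at least 2-fold higher in arterial-type than in capillary-type cells in both libraries, and 314, 3.08%, were at most 0.5-fold. Of 24 measured genes of the arterial list, 15 were higher and 0 lower by that measure, with median log2 ratios of 1.96 in WT and 2.02 in the mutant next to 0.04 and −0.08 for all genes. Of 13 measured genes of the elastic artery wall, 11 were higher and 0 lower, with medians of 1.84 and 2.69.

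Among Notch genes the ligand Jag1 and the target Hey1 were the members of the list that stood apart, 2 of 13 measured. Jag1 stood at 190 and 218 CPM in WT and mutant members against 36.2 and 41.1 in capillary-type cells, log2 ratios of 2.39 (2.09 to 2.70) and 2.41 (1.97 to 2.86). Hey1 (ENSMUSG00000040289, chromosome 3, 8663359 to 8667256) stood at 128 CPM (113 to 145) and 131 CPM (112 to 152) against 16.4 and 9.68, log2 ratios of 2.97 (2.54 to 3.41) and 3.76 (2.92 to 4.74). The other arterial ligand, Dll4, was near its capillary level at 104 and 180 CPM against 111 and 146. The receptors Notch1 and Notch4 and the mediator Rbpj had log2 ratios between −0.60 and 0.43 in the 2 libraries. Jag1 also had a UMI in 18.5% and 15.1% of neutrophils, against 60.0% and 66.9% of members.

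Efnb2 and Cxcl12 were under 2-fold from their capillary level and further above their venous level. Efnb2 stood at 390 and 392 CPM in members, 332 and 203 in capillary-type cells and 90.2 and 60.1 in venous-type cells. Its log2 ratios over capillary-type cells were 0.23 (0.10 to 0.36) in WT members and 0.95 (0.73 to 1.17) in mutant members. Cxcl12, a chemokine of arterial endothelium, stood at 782 and 792 CPM against 639 and 744 in capillary-type cells and 126 and 97.2 in venous-type cells. In transcription factors the class differences were small: of 18 measured, Sox17 was the member 2-fold higher in both libraries, and Fli1 and Tcf15 were at most 0.5-fold.

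**Figure D2:**
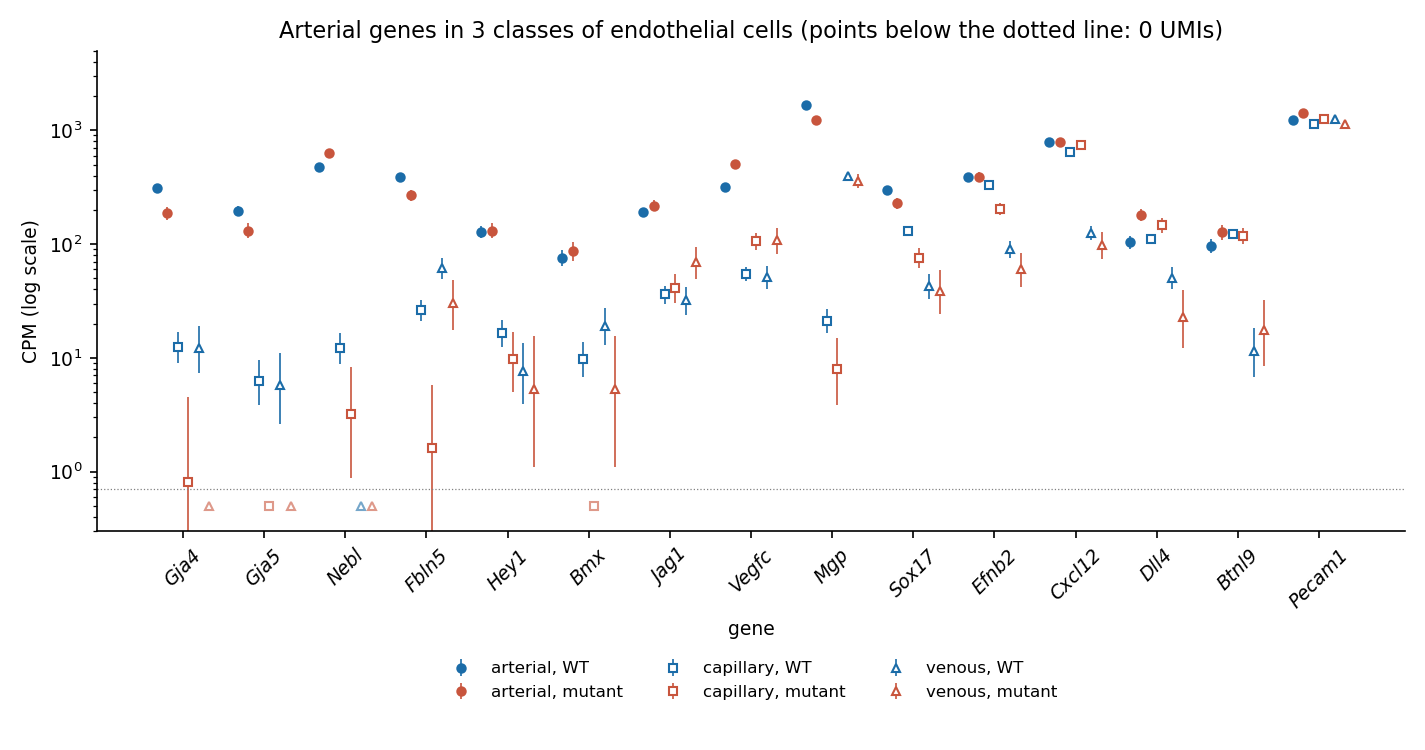
CPM on a log scale of 15 genes in arterial-type (filled circles), capillary-type (squares) and venous-type cells (triangles) of the WT (blue) and mutant (red) libraries; lines are exact 95% Poisson intervals and points below the dotted line had 0 UMIs. Gja4, Gja5 and Nebl stand far above both other classes, Efnb2, Cxcl12 and Dll4 stand further from venous-type than from capillary-type cells, and Btnl9 lies beside capillary-type cells.

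The wall genes counted above and several secreted signals were higher in the members than in capillary-type cells, and against venous-type cells they varied. Vegfc (ENSMUSG00000031520, chromosome 8, 54077606 to 54187096), the growth factor of lymphatic vessels, reached 318 CPM (294 to 343) in WT members and 509 CPM (472 to 549) in mutant members, against 54.7 and 106 in capillary-type cells and 51.2 and 108 in venous-type cells. Edn1, which encodes the vasoconstrictor endothelin, stood at 166 and 183 CPM against 24.5 and 31.4 in capillary-type and 132 and 65.4 in venous-type cells. Mgp (ENSMUSG00000030218, chromosome 6, 136872435 to 136875823), an inhibitor of calcification, stood at 1662 and 1231 CPM against 21.2 and 8.06, log2 ratios of 6.29 (5.95 to 6.65) and 7.25 (6.37 to 8.32). Mgp had a UMI in 81 WT and 32 mutant members, and 1 mutant cell held 29.0% of the mutant members' UMIs. As a background, 7.61% and 8.16% of neutrophils and 9.09% and 8.70% of B cells had a Mgp UMI. A larger share of mutant venous-type cells (52.6%) than of mutant members (26.4%) had a Mgp UMI, at a greater depth per cell. Fbln5 (ENSMUSG00000021186, chromosome 12, 101746565 to 101819055), a fibulin of elastic fibres, stood at 390 and 268 CPM against 26.3 and 1.61, with 2 UMIs behind the last value. Cytl1 (ENSMUSG00000062329, chromosome 5, 37735519 to 37739820), a small secreted protein, had 0 UMIs in capillary-type cells of either library. Against a floor of 3 UMIs it was 147-fold higher in WT and 69.1-fold in mutant members, with lower interval bounds of 6.89 and 5.80 in log2. It sat in 19 WT and 7 mutant cells. Eln, Fn1, Clu, Sulf1, Bgn, Fbln2, Ltbp4 and Crip1 completed the higher genes of the wall list. Bgn, which mural cells also make, moved with the mural genes described further on and was lower in members than in venous-type cells, at log2 ratios of −1.21 and −1.81.

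The shares of the lists that follow are read against the 4.86% of all genes that were higher and the 3.08% that were lower. In vasomotor genes, 5 of 13 measured were higher and 0 lower: Edn1, Ace, which makes angiotensin II, Bdkrb2, the bradykinin receptor, the potassium channel Kcnn3 and Gucy1a1. Gucy1a1, a smooth-muscle gene, turned lower in WT, at −0.25, without members that carried at least 5 mural UMIs. Bdkrb2 stood at 68.1 and 76.6 CPM against 7.47 and 4.03. In BMP and TGF-beta genes, 3 of 14 were higher, namely Tmem100, Smad6 and Tgfbr2, and Bmp6 was lower, at 149 and 297 CPM against 1272 and 1444. In axon guidance genes, 2 of 19 were higher, Sema3f and Ntn4. Of 13 basement membrane genes, Col18a1 and Col15a1 were higher. Col15a1 turned lower than in capillary-type cells when cells were thinned to 2000 UMIs, at −1.003 in WT and −1.68 in the mutant, and was lower than in venous-type cells without thinning, at −1.71 and −1.93. The collagen gene Col4a1 stood at 1072 and 1094 CPM against 1098 and 1076. Among 18 pan-endothelial genes outside the gate, Cldn5, a tight junction gene, and Plvap, the diaphragm protein of fenestrated and venous endothelium, were higher. Nr4a1 was the member of 16 immediate early and stress genes that was higher.

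Capillary genes were low in the members. Of 13 on that list, 8 were at most 0.5-fold in both libraries and 0 were higher. The water channel gene Aqp1 stood at 454 and 300 CPM against 2573 and 2898 in capillary-type cells. The lipoprotein lipase gene Lpl stood at 248 and 123 CPM against 1283 and 771, Cd36, the fatty acid transporter, at 927 and 842 against 2767 and 2121, and Gpihbp1, which anchors the lipase, Rgcc, Cd300lg, Aqp7 and Tcf15 went the same way. Capillary and arterial UMIs still met in some cells: 74 WT and 43 mutant members carried at least 1 UMI of Car4 or Timp4.

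Some immune and venous genes were higher in members than in capillary-type cells. The MHC class II genes Cd74, H2-Aa, H2-Ab1 and H2-Eb1 were the 4 of 8 antigen presentation genes that were higher, with Cd74 at 627 and 741 CPM against 86.3 and 148 in capillary-type cells and 1571 and 1615 in venous-type cells. Of 11 venous genes, Selp, Vcam1, Sele, Lrg1 and Ackr1 were higher than in capillary-type cells, and each was below its level in venous-type cells, a class that Ackr1 and Selp define. Ackr1 had 116 UMIs in 7 WT members, and its mutant ratio over capillary-type cells rested on 6 against 2 UMIs, a log2 ratio of 1.47 (−1.02 to 4.81). At least 2 UMIs of Ackr1 plus Selp were found in 8 WT and 3 mutant members. Of 17 inflammatory genes, 6 were higher: Vcam1, Sele, Selp, Lrg1, the chemokine Cx3cl1 and Il6. Over venous-type cells Cx3cl1 had log2 ratios of 2.58 and 2.79, and Il6 of −0.01 and 0.16. The interferon-induced chemokines Cxcl9 and Cxcl10 were the 2 of 19 interferon genes that were higher, and Cxcl9 turned lower after thinning to 2000 UMIs, at −0.97 in WT and −0.94 in the mutant. Few cells carried them, since Cxcl9 sat in 28 WT and 24 mutant members and 1 mutant cell held 42.1% of its UMIs.

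The 12 genes with the highest ratio to capillary-type cells, by the smaller ratio of the 2 libraries and leaving out genes with over 25% of their UMIs in 1 cell, such as Mgp and Cytl1, were Nebl, Gja5, Gja4, Dkk2, Itgb3, Fbln5, Trpv4, Ptchd1, Dbn1, Col8a1, Sdcbp2 and Arhgap44. Dkk2, a secreted modulator of Wnt signalling, had 48 and 62 UMIs in members and 1 and 0 in capillary-type cells. Col8a1, a collagen of vessel walls, stood at 259 and 243 CPM against 19.4 and 2.42, and the cation channel gene Trpv4 at 71.5 and 52.8 against 5.08 and 0.806, 1 UMI. The 12 lowest were Adh1, Hhipl1, Ntf3, Slc1a1, Prtg, Slc28a2, Rarres1, Gm12002, D830026I12Rik, Samd5, Cyp26b1 and Hdac9. Adh1, an alcohol dehydrogenase, stood at 5.88 and 1.49 CPM in members against 150 and 60.5 in capillary-type cells, and Hdac9, a histone deacetylase, at 180 and 135 against 1410 and 1030.

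The members were not uniform, and some arterial genes were highest where both rule genes were present. In members with both Sema3g and Stmn2, Gja4 stood at 406 CPM (372 to 442) in WT and 281 in the mutant. It stood at 220 and 85.3 CPM in members with Sema3g alone and at 58.7 and 17.4 CPM in members with Stmn2 alone. Nebl followed the same order at 615, 361 and 49.4 CPM in WT and 982, 236 and 26.0 CPM in the mutant, as did Gja5 and Fbln5. Mgp was kept mostly in members with both genes, at 2356 and 2188 CPM, against 246 and 56.8 in those with Sema3g alone and 760 and 122 in those with Stmn2 alone. Without cells that carry genes of other lineages, Mgp was 2661 and 2431 CPM with both genes, 2.88 (1 UMI) and 23.9 with Sema3g alone, and 1083 and 0 with Stmn2 alone, so its order among the last 2 sets differed between the libraries. Other arterial genes did not follow this order in each library: in WT Cxcl12 stood at 1017 CPM with Sema3g alone against 758 with both, and Efnb2 at 431 against 415, and in the mutant Btnl9 stood at 182 CPM with Stmn2 alone against 152 with both.

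Nr2f2 and Vwf were highest in members with Stmn2 alone. Nr2f2, the transcription factor of venous identity, stood at 451 CPM in WT and 260 in the mutant there, against 69.0 and 44.7 in members with both genes and 481 and 458 in venous-type cells. Vwf, the von Willebrand factor gene, stood at 281 and 321 CPM there against 103 and 165 in members with both. Plvap was high in members with Sema3g alone, at 532 and 566 CPM, and with Stmn2 alone, at 571 and 182, and low in those with both, at 153 and 89.5. Aqp1 stood at 713 and 1346 CPM in members with Stmn2 alone, 712 and 242 in those with Sema3g alone and 304 and 175 in those with both. Without the cells that carry genes of other lineages, Nr2f2 in members with Stmn2 alone was 495 and 277 CPM, so its level there did not rest on them.

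A set of 11 other arterial genes outside the rule, chosen after their values were seen, gave a measure per cell. At least 3 UMIs of the set were found in 161 of 195 WT members, 82.6% (76.5 to 87.6), and 99 of 121 mutant members, 81.8% (73.8 to 88.2). The same held for 9.66% and 11.1% of capillary-type cells, 50% and 52.6% of the deeper venous-type cells, at medians of 15173 and 13130 UMIs, and 20.1% and 14.9% of cells in no class. In WT 19 members and in the mutant 6 had none of the 11. In cells just outside the rule, with 1 UMI of the pair, Gja4 stood at 27.9 and 41.6 CPM, below the 101 and 93.0 CPM of members with exactly 2 UMIs.

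**Figure D3:**
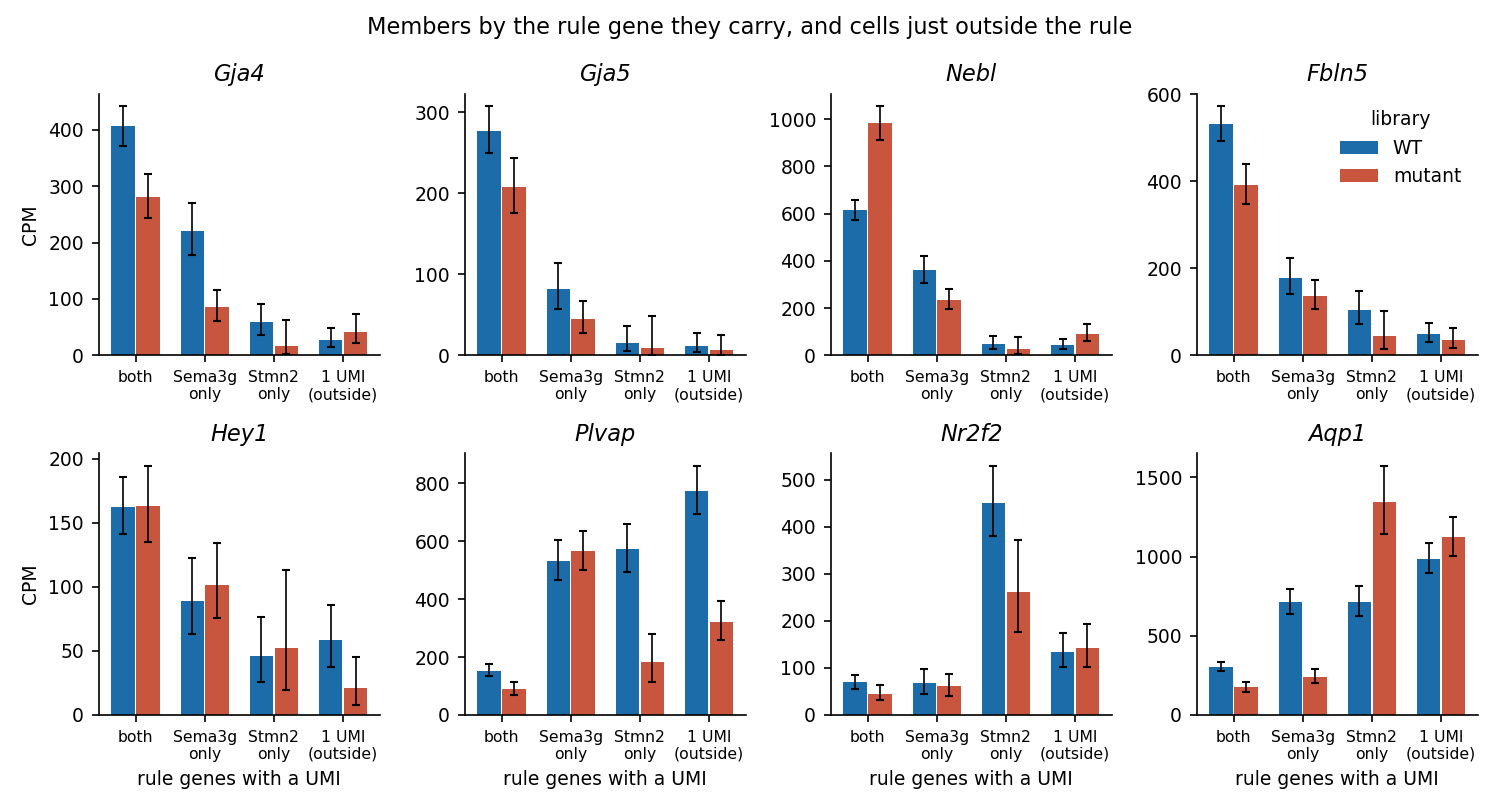
CPM of 8 genes in members with both Sema3g and Stmn2, with Sema3g alone or with Stmn2 alone, and in cells just outside the rule with 1 UMI of the pair, in the WT and mutant libraries; bars are CPM and lines exact 95% Poisson intervals. Gja4, Gja5, Nebl and Fbln5 are highest in members with both genes, and Nr2f2 is highest with Stmn2 alone, at 451 and 260 CPM.

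Some members also carried genes of other lineages, and these differed between the libraries. By a rule chosen after the data were seen, a member was mixed when at least 0.5% of its UMIs came from 1 of 8 lists of other lineages. This held for 27 WT members, 13.8% (9.33 to 19.5), and 25 mutant members, 20.7% (13.8 to 29.0), which left 168 and 96 unmixed members. In WT 16 of these cells were mixed by mural genes, 5 by erythroid and 4 by fibroblast genes. In the mutant 16 were mixed by erythroid genes, 8 by myeloid and 6 by mural genes. The rule uses the same 8 lists whose sums follow, so lower sums in unmixed members come by construction.

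At least 1 UMI of every gene of the mural, erythroid and myeloid lists was found in the members of each library. The 12 mural genes, of smooth muscle and pericytes, summed to 2196 CPM in WT and 846 CPM in mutant members, with Rgs5 the most abundant, and to 195 and 131 CPM in unmixed members. Of 10 measured mural genes, 9 were at least 2-fold higher in members than in capillary-type cells in both libraries, where the list summed to 710 and 79.8 CPM. In WT, Acta2, Tagln, Myh11, Tpm2 and Des turned lower than in capillary-type cells without doublet calls. The 6 erythroid genes summed to 11664 and 32978 CPM with Hbb-bs the most abundant, and to 295 and 746 CPM in unmixed members. The 9 myeloid genes summed to 337 and 1105 CPM, and to 360 and 463 CPM without mixed members, led by Lyz2 in WT and S100a9 in the mutant. The 8 fibroblast genes summed to 1462 and 138 CPM, and to 241 and 105 CPM, with 1 WT cell holding 40.6% of the WT sum. The 8 Schwann and neural genes summed to 211 and 28.2 CPM with 1 WT cell at 75.9% of the sum, the 9 lymphatic genes to 647 and 192 CPM (400 and 175 without mixed members), and the 6 muscle genes to 215 and 137 CPM. Whether these UMIs came from droplets with more than 1 cell, from free RNA or from the members themselves was not tested.

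**Figure D4:**
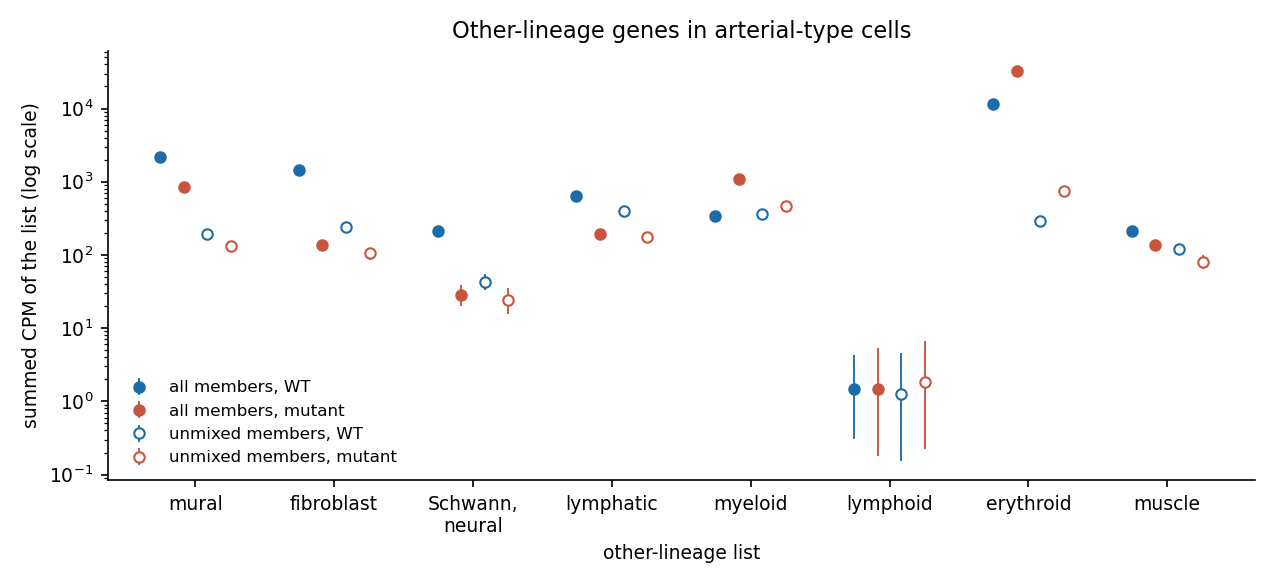
Summed CPM on a log scale of 8 lists of genes of other lineages in all members (filled) and unmixed members (open) of the WT (blue) and mutant (red) libraries, with exact 95% Poisson intervals. Mural sums drop from 2196 and 846 CPM to 195 and 131 without mixed members, which these lists define, so the drop comes by construction. Lymphoid sums stay under 2 CPM.

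The same cells were then set side by side between the libraries, which addresses whether arterial endothelium differed with the Prox1 genotype as far as 1 library each can show. Of 7835 genes with at least 50 UMIs in the members, 90, 1.15%, were at least 2-fold higher in the mutant and 434, 5.54%, at most 0.5-fold, and the median log2 ratio was −0.04. Of these 524 genes, 236 had over 25% of their UMIs in 1 cell. Among unmixed members 108 of 6843 genes, 1.58%, were at least 2-fold higher and 164, 2.4%, at most 0.5-fold. Of the 434 lower genes 173 could still be measured among unmixed members, and 124 of those were at most 0.5-fold again. Of the 90 higher genes 66 could still be measured and 54 were at least 2-fold again.

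Single arterial genes differed in both directions, nearly all by under 2-fold. Of 24 measured genes of the arterial list, Gkn3 was the member past 2-fold, with 37 UMIs in WT and 49 in mutant members and a log2 ratio of 1.01 (0.36 to 1.66), and 0 were at most 0.5-fold. In 1 mutant cell lay 32.7% of its mutant UMIs. It had 0.78 in unmixed members, where none of the list was past 2-fold. The list's median log2 ratio was 0.11, and −0.03 in unmixed members. Hey1 had a ratio of 0.03 (−0.26 to 0.31), Efnb2 of 0.01 (−0.15 to 0.17) and Cxcl12 of 0.02 (−0.09 to 0.13), so their levels differed by less than counting error.

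Some single arterial genes were lower in the mutant library, each by less than 2-fold, while the arterial list had a median log2 ratio of 0.11. Gja4 had a log2 ratio of −0.74 (−0.96 to −0.53), Gja5 of −0.58 (−0.84 to −0.32), Fbln5 of −0.54 (−0.72 to −0.36), Mgp of −0.43 (−0.52 to −0.35) and Sox17 of −0.39 (−0.59 to −0.19). In unmixed members the same ratios were −0.85, −0.77, −0.76, −0.57 and −0.54. Since members with both rule genes carry most of these transcripts, the ratios were also taken within them, where they were −0.53 (−0.77 to −0.30) for Gja4, −0.42 (−0.70 to −0.14) for Gja5, −0.44 (−0.64 to −0.24) for Fbln5, −0.11 (−0.19 to −0.02) for Mgp and −0.33 (−0.56 to −0.10) for Sox17. The direction was the same in each set of cells, and for Mgp the size was small within members with both rule genes. The same genes were also lower in mutant capillary-type cells, with log2 ratios of −3.96 (−9.30 to −1.40) for Gja4 from 42 and 1 UMIs, −4.03 (−7.10 to −2.13) for Fbln5 from 88 and 2 UMIs, −1.40 (−2.52 to −0.43) for Mgp and −0.77 (−1.11 to −0.45) for Sox17, and with 21 and 0 UMIs of Gja5. The lower values were thus not particular to the members.

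Other arterial genes were higher in the mutant library. Dll4 had a log2 ratio of 0.79 (0.52 to 1.07), from 212 UMIs in 90 WT members and 242 UMIs in 76 mutant members, and 0.64 (0.35 to 0.93) in unmixed members. Vegfc had 0.68 (0.52 to 0.84), and 0.34 (0.16 to 0.52) in unmixed members. The levels of long genes such as Mecom and Nebl depend on whether intronic reads were counted, which is not given in the sources used here. Mecom, a transcription factor of arterial endothelium, had 0.66 (0.59 to 0.72), Alpl 0.56 (0.31 to 0.81) and Nebl 0.41 (0.27 to 0.54). In capillary-type cells Vegfc had 0.96 (0.63 to 1.29), Dll4 0.40 (0.14 to 0.66) and Mecom 0.13 (0.07 to 0.19), so none of the 3 was higher in the members alone. Nebl went the other way there, from 41 to 4 UMIs, a log2 ratio of −1.93 (−3.87 to −0.46). Within members with both rule genes, Vegfc had 0.90 (0.73 to 1.08), Dll4 0.83 (0.49 to 1.16), Mecom 0.54 (0.46 to 0.62) and Nebl 0.68 (0.53 to 0.82). In members with Sema3g alone or Stmn2 alone Nebl was lower in the mutant, as given above, and a smaller share of mutant than of WT members had a Nebl UMI.

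**Figure D5:**
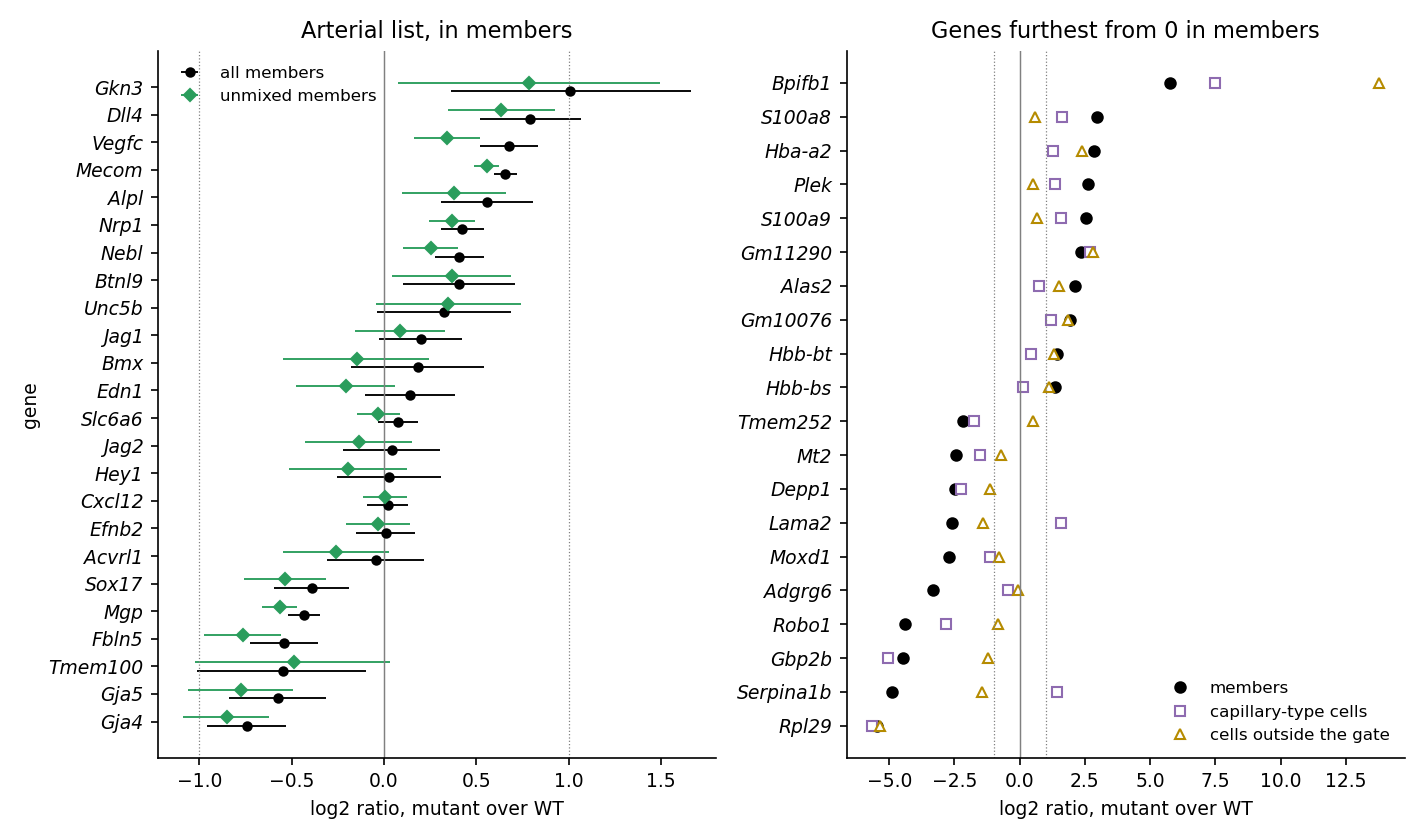
Log2 ratios of mutant over WT CPM. Left, 24 genes of the arterial list in all members (black circles) and unmixed members (green diamonds) with exact 95% intervals; right, the 10 highest and 10 lowest genes in members, ranked by the interval bound nearest to 0 and leaving out genes with over 25% of their UMIs in 1 cell (circles), with the same ratio in capillary-type cells (squares) and in cells outside the endothelial gate (triangles), where a gene at 0 UMIs in a library is set to 3 UMIs. Dotted lines mark 2-fold, Gkn3 is the arterial gene past it, and Rpl29 lies near −5.45 in members.

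Counts for the venous, immune and stress lists stand beside 1.15% higher and 5.54% lower of all genes, and Selp and Lrg1 belong to both of the first 2 lists given. Of 11 venous genes, Ackr1, Selp and Lrg1 were at most 0.5-fold and 0 at least 2-fold, and the list's median log2 ratio was 0.10. In unmixed members the median was −0.34, with Ackr1 and Lrg1 at most 0.5-fold. Lrg1, a secreted glycoprotein induced in inflammation, had 358 UMIs in 57 WT members and 91 UMIs in 24 mutant members, a log2 ratio of −1.37 (−1.72 to −1.04), and −1.38 in unmixed members. Ackr1 had its 6 mutant UMIs in 4 members. Of 17 inflammatory genes 5 were at most 0.5-fold, namely Selp, Lrg1, Cxcl1, Cebpd and Steap4, and 0 at least 2-fold. In unmixed members 3 of 14 were, namely Lrg1, Cxcl1 and Cebpd. Cxcl1 had 43.3% of its WT UMIs in 1 cell and turned to 0.19 after thinning to 2000 UMIs. Of 19 interferon genes Cxcl9 was higher, at 244 CPM in WT and 718 in the mutant, with much of the mutant count in 1 cell, as given above. Cxcl10 was lower, at 123 and 31.2, with 72.9% of its WT UMIs in 1 cell. By means of single-cell CPM its log2 ratio turned to 0.31. The heat shock genes Hspa1a and Hspa1b were the 2 of 16 immediate early and stress genes at most 0.5-fold, with log2 ratios of −1.56 (−1.84 to −1.28) and −1.75 (−2.09 to −1.43), and in capillary-type cells they had −1.82 and −2.39. These 2 genes are near copies, so the split of reads between them is uncertain. Of 8 antigen presentation genes none was past 2-fold, and H2-Aa had 0.76 (0.53 to 0.99).

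The lists that follow are read against the same shares, 1.15% higher and 5.54% lower of all genes. Lpl was the 1 of 13 capillary genes at most 0.5-fold, at −1.01 (−1.27 to −0.75), and −0.95 in unmixed members. Of 14 BMP and TGF-beta genes Bmp4 was higher, with 25 and 34 UMIs and a log2 ratio of 0.42 in unmixed members, and Bmp6 had 0.99 (0.77 to 1.21). Of 18 axon guidance genes, Robo1 and Sema3d were at most 0.5-fold, of 11 vasomotor genes Gucy1a1, and of 13 wall genes Bgn, whose log2 ratio of −1.22 was −0.24 (−0.67 to 0.18) in unmixed members. In the Notch, transcription factor, basement membrane and pan-endothelial lists none of 13, 18, 13 and 18 measured genes was past 2-fold. Of 9 mural genes 7 were at most 0.5-fold, and 5 of 6 erythroid genes and S100a8 and S100a9 of 3 myeloid genes were at least 2-fold higher, along with the sums of other lineages given above. Of lymphatic, fibroblast, and Schwann and neural genes, 4 of 7, 5 of 6 and 3 of 3 measured were at most 0.5-fold. For the lymphatic list, 1 WT cell held 33.8% of the WT members' UMIs. In unmixed members 3 mural genes could be measured and 2 were at most 0.5-fold, as were 1 of 3 lymphatic and 2 of 5 fibroblast genes. None of the Schwann and neural list could be measured there. Tpm2, Tagln and Myh11 turned to 0.13, 1.19 and 0.13 without mixed members, where Acta2 stayed lower at −2.40 (−3.79 to −1.26). Rgs5, Tagln and Acta2 turned to 0.33, 2.74 and 1.10 without members that carried at least 5 mural UMIs. Both filters act on mural genes themselves. Unmixed members kept 307 WT and 141 mutant UMIs of the 12 mural genes, so ratios of single mural genes there rest on few UMIs.

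By the interval bound nearest to 0, the 10 genes highest in the mutant were Bpifb1, Hba-a2, S100a8, S100a9, Gm10076, Plek, Alas2, Gm11290, Hbb-bt and Hbb-bs. Bpifb1, an airway and gland secretory gene, had 0 UMIs in WT and 106 in mutant members, with no cell above 4.72% of them. It had 0 and 200 UMIs in capillary-type cells and 7 and 121986 UMIs in cells outside the endothelial gate. In unmixed members the haemoglobin genes Hba-a2, Hbb-bt and Hbb-bs stood at 116, 108 and 337 CPM in the mutant and 26.7, 44.6 and 156 CPM in WT, and S100a8 and S100a9, which encode neutrophil calprotectin, stood at 146 and 178 CPM against 57.3 and 80.8. All of these are abundant in cells outside the gate, and the part of free RNA in them was not tested. The predicted gene Gm10076 had a log2 ratio of 1.94 (1.71 to 2.18) in members, 1.20 in capillary-type cells and 1.85 outside the gate.

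The 10 genes lowest in the mutant were Rpl29, Gbp2b, Robo1, Serpina1b, Depp1, Adgrg6, Moxd1, Tmem252, Mt2 and Lama2. Rpl29, a ribosomal protein gene, had 994 UMIs in WT and 15 in mutant members, a log2 ratio of −5.45 (−6.29 to −4.72), and the same gene had −5.66 in capillary-type cells and −5.36 outside the gate. Ribosomal protein genes have near copies elsewhere in the genome between which reads can be split, and the part of this in the counts of Rpl29 was not tested. Gbp2b, an interferon-induced GTPase, had 102 and 0 UMIs in members and 265 and 0 in capillary-type cells, with −1.23 outside the gate. These differences were thus shared by cells of other kinds in the same libraries.

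Others of the 10 were closer to endothelium or to the members. Tmem252, a membrane protein gene, had 632 UMIs in WT and 93 in mutant members, a log2 ratio of −2.16 (−2.49 to −1.85), against −1.77 in capillary-type cells and 0.49 outside the gate. Depp1, a target of FOXO transcription factors, had 257 and 30 UMIs, −2.50 (−3.09 to −1.95), against −2.26 and −1.13. Robo1, a guidance receptor, had 129 and 4 UMIs, −4.41 (−6.31 to −3.02), against −2.82 and −0.82. Moxd1 and Serpina1b had 120 and 12, and 90 and 2 UMIs in members and few in capillary-type cells, at 12 and 2, and 1 and 1 UMIs. For Tmem252, Depp1, Robo1, Moxd1 and Serpina1b the log2 ratios in unmixed members lay between −4.72 and −2.33.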

How the data were processed

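Droplet scRNA-seq libraries of the TMJ, 1 from WT and 1 from Prox1+/− mice after CFA, were used. The submitters' processing notes name mm10 (GRCm38) and Cell Ranger 7.0.1. The deposited values are whole-number UMI counts per barcode for 32285 genes, which the authors had not normalized. Whether intronic reads were counted is not given in the sources used here. Gene positions are from the GENCODE annotation of GRCm38 and upstream sequences from RefSeq. The counts of a gene were summed over the cells of a class in each library and divided by all UMIs of those cells to give CPM. Intervals are exact Poisson for CPM, exact conditional binomial for ratios, Clopper-Pearson for shares and Newcombe for differences, at 95%. A gene was measured with at least 50 UMIs over the cells compared, and 0 UMIs were set to a floor of 3. Called means a ratio of at least 2 or at most 0.5. Some cells, 6 in WT and 0 in the mutant, met both the capillary and the venous definition and count in both.

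The members and the 26 gene lists were chosen with earlier results of these data known. The genes named are those of the lists, the 12 highest and 12 lowest between classes and the 10 highest and 10 lowest between libraries, leaving out rule genes and genes with over 25% of their UMIs in 1 cell. The rule for mixed members, the 11 other arterial genes, and the lists of clock and glucocorticoid-induced genes were chosen after their values were seen.

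Doublets were not removed. Scrublet scored 5469 WT and 7603 mutant barcodes, its automatic threshold called 0, and the top 239 and 462 scores, at 0.008 per 1000 cells, were called instead, among them 20 WT (10.3%) and 7 mutant (5.79%) members. Alternatives changed cell filters, the rule's thresholds, minimum UMIs, scaling, the fold threshold, thinning to 2000 UMIs, and left out doublet calls, members with at least 5 mural UMIs, mixed members or the top cell of each gene. The ratio code was tested on simulated data. Python 3.11.15, numpy 2.4.6, scipy 1.17.1, pandas 2.3.3, matplotlib 3.10.9 and scanpy 1.11.5 were used.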

Additional observations from a re-analysis of the deposited data

Results flagged for a closer look

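Outside the cell filter, at under 500 genes or at least 10% mitochondrial UMIs, 3 barcodes of the WT library and 3 barcodes of the mutant library met the arterial rule. They stand out only because they lie in barcodes that no comparison uses, and they were added to none.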

How the results depend on the processing

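No paired analysis was possible because each genotype has 1 library and the labels carry no replicate numbers. The difference in the members' share of endothelial cells stayed within counting error, from −1.92 to 2.70 points, under every alternative run. Their share of kept cells was lower in the mutant under every alternative, with −1.19 points after thinning to 2000 UMIs. The 90 genes higher in the mutant became 219 with a minimum of 20 UMIs, 45 with 100 UMIs, 185 by means of single-cell CPM, 469 at 1.5-fold and 35 after thinning. The 434 lower became 893, 185, 1044 and 49 at 20 UMIs, 100 UMIs, 1.5-fold and thinned, and 164 without mixed members. The 495 genes higher and 314 lower in arterial-type than in capillary-type cells became 955 and 837 at 1.5-fold and 180 and 194 after thinning, where fewer UMIs leave fewer genes measured.

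Of the single-gene ratios, 5319 between classes and 2556 between libraries kept their place, 864 and 363 moved and 36 and 10 changed sign, counting only pairs with more than 3 UMIs on a side. Sign changes of the log2 ratio are as follows. By means of single-cell CPM, Cxcl10 between libraries became 0.31, and between classes in the mutant Steap4 0.39, Abcc9 −0.088 and Slc4a1 0.19. With a cell filter of 1000 genes and 5% mitochondrial UMIs, Steap4 became 2.17, and 2.21 without the top cell of each gene. Without doublet calls, WT class ratios became −0.0063 for Des, −1.14 for Tpm2, −1.19 for Tagln, −0.069 for Myh11 and −0.50 for Acta2, and mutant ones 0.61 for Slc4a1 and −1.89 for Pdgfrb. Leaving out members with at least 5 mural UMIs, which by construction removes mural genes from arterial-type and not from capillary-type cells, gave −2.23 for Des, −2.09 for Rgs5, −0.25 for Gucy1a1, −4.72 for Tpm2, −0.33 for Steap4, −5.57 for Tagln, −6.83 for Myh11, −0.36 for Mylk, −3.59 for Notch3, −2.96 for Pdgfrb and −6.41 for Acta2 in WT, −0.44 for Notch3 and −2.83 for Pdgfrb in the mutant, and 0.33, 2.74 and 1.10 for Rgs5, Tagln and Acta2 between libraries. Thinning gave 0.70 for Rgs5, 0.19 for Cxcl1 and 0.34 for Bgn between libraries, −1.003 for Col15a1, −0.97 for Cxcl9 and −1.46 for Robo1 in WT, and −1.68 for Col15a1, −0.94 for Cxcl9, 0.23 for D830026I12Rik and 1.65 for Slc4a1 in the mutant. Without mixed members Tpm2, Tagln and Myh11 between libraries became 0.13, 1.19 and 0.13, Tpm2 and Tagln in WT −0.12 and −0.29, and Hba-a2 and Slc4a1 in the mutant −0.96 and 0.68. Except where stated, the cause was not tested. Depth limits Prox1 and other genes with few UMIs in the members.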

Other observations

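Most of the measured genes on a list of genes that glucocorticoids are known to induce stood lower in the arterial-type cells of the mutant library. Of 15 measured, 8 were at most 0.5-fold and 0 at least 2-fold, 14 had a log2 ratio of mutant over WT below 0, and the median was −1.05. Of all genes 5.54% were at most 0.5-fold and 1.15% at least 2-fold, with a median of −0.04. The list was chosen after values had been seen, so its count supports nothing by itself. Tsc22d3, a leucine zipper protein that mediates glucocorticoid effects, had 325 UMIs in WT and 82 in mutant members, a log2 ratio of −1.39 (−1.75 to −1.03), with −1.93 in capillary-type cells and −1.58 in cells outside the endothelial gate. Zbtb16 had 1257 and 399 UMIs, −1.05 (−1.22 to −0.89), with −0.99 and −1.55. The metallothionein gene Mt1 had 509 and 79 UMIs, −2.09 (−2.45 to −1.74), with −1.49 and −1.14, and Glul, Cdkn1a, Ddit4, Cebpd and Mt2 were the others at most 0.5-fold. Fkbp5 had −0.94 (−1.30 to −0.60), with −1.33 and −1.32. The lower values were thus not particular to arterial-type cells.

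Genes of the circadian clock differed in direction. Nr1d1, a repressor of the clock, had 34 UMIs in WT and 78 in mutant members, a log2 ratio of 1.80 (1.20 to 2.43), with 3.47 in capillary-type cells and 0.86 outside the gate. Npas2, a transcriptional activator of the clock, had 69 and 11 UMIs, −2.05 (−3.12 to −1.12), with −2.36 and −2.30. Of 12 measured clock genes, 2 were at least 2-fold higher (Nr1d1 and Tef) and 2 at most 0.5-fold (Npas2 and Nfil3), beside 1.15% and 5.54% of all genes, from a list also chosen after values had been seen. The core activators Arntl and Clock had −0.19 (−0.56 to 0.18) and −0.25 (−0.52 to 0.02). The times at which the joints were collected are not given in the sources used here, and their part in these values was not tested.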
